A study of Aedes aegypti with 6 samples.

Results

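A splice junction marks an intron that a sequenced read skips, and in the yellow fever mosquito Aedes aegypti 1389 of 21668 junctions were crossed by no read with a single place in the genome. They were chosen by 3 criteria. The intron had to begin and end with the common GT-AG motif on either strand (motif code 1 or 2), its uniquely mapped reads had to sum to 0 over the 6 libraries, and its multiply mapped reads had to sum to at least 10. Such reads fit equally well at more than 1 place, so their junctions lie where the genome sequence is alike at several places. The criteria therefore fix the absence of unique reads and the minimum of 10, and neither is a finding. At the edge of the rule, 49 junctions had exactly 10 reads, of which 15 were annotated, and 62 junctions just outside it had 9 reads, of which 13 were annotated. A further 77 junctions had enough multiply mapped reads but also 1 unique read.

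The libraries were made from whole bodies of adults and larvae collected at 3 locations in Eastern India. The labels call location 1 K1, location 2 K3 and location 3 C. Each library held total RNA of a pool of 10 mosquitoes, and there was 1 adult and 1 larval library per location, so each stage had 3 libraries. The labels give no strain, sex, age, feeding state or treatment. A whole-body pool mixes all tissues, so a change in RNA per cell and a change in the number of cells of a type cannot be told apart.

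Gene families that arose by duplication, transposable elements and tandem repeats make up much of the large Aedes aegypti genome. The nuclear genome also holds stretches that derive from the mitochondrial genome. A genome assembly can further list 1 locus in more than 1 place, when 2 versions of the same chromosome segment were assembled apart and 1 of them remained on an unplaced scaffold. Gene tables that count only uniquely mapped reads give such loci little or no signal, whereas the junction tables keep their reads at every place where they fit. The chromosome positions below are those of the junction tables, whose genome build is not given in the sources used here. Gene symbols come from the RefSeq table of assembly AaegL5.0, which gives no description of these genes, so they are named by symbol without a role.

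Junction reads numbered 4676538, 1453730 and 2127371 in the adult libraries of locations 1, 2 and 3, and 5744415, 5583487 and 7772021 in the larval ones. The libraries also differed in how many of all their reads were placed at several sites. This share was 36.0, 62.2 and 39.3% in adults and 11.8, 16.2 and 11.5% in larvae, with no overlap between the stages. Its part in the stage differences given below was not tested.

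Most of the reads at these junctions came from a few introns, and the introns with the most reads had a second copy elsewhere in the assembly. The 1389 junctions together held 1277239 reads, counted once at each place. The top 3 held 37.0% of them, the top 10 held 59.1% and the top 100 held 93.3%. Annotated introns were 617 of the 1389 (44.4%) but held 92.2% of the reads. Among 11431 other junctions of the same motifs, with a unique read and at least 10 reads in all, 88.5% were annotated. Unplaced scaffolds held 354 of the 1389 (25.5%), on 160 scaffolds, against 0.700% of the other junctions. They held 72.9% of the member reads, and 646819 of the 26053984 reads at the other junctions. Part of the scaffold share follows from the rule. A chromosomal copy with a unique read is left out while its scaffold copy stays, as in 30 cases with at least 100 reads described below. Chromosomes 1, 2 and 3 held 278, 281 and 463 of the 1389, and the mitochondrial genome held 13. Both strands were used, 757 on the plus and 632 on the minus strand.

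The 3 junctions with the most reads lay on 2 scaffolds. On NIGP01000516 the intron at 11282 to 11539 (258 bases) had 200047 reads, the next at 11630 to 13038 (1409 bases) had 128499, and the third at 13192 to 13396 (205 bases) had 36455. Introns of 258, 1408 and 205 bases lay in the same order in LOC5572088 on chromosome 3, at chr3:344888585-344888842, chr3:344888933-344890340 and chr3:344890494-344890698. The first pair shared 200047 multiply mapped reads, and the chromosomal copy had 266 unique reads besides. The second pair had 128499 and 128500. The third pair shared all 36455, with no unique read at either. Over the 3 annotated introns of LOC5572088, unique reads numbered 268 and multiply mapped reads 365002. At the intron of 258 bases, counts per 1000000 junction reads after TMM scaling (CPM) were 6871, 5778 and 7659 in adults of locations 1, 2 and 3, and 5211, 10137 and 7973 in larvae. The stages overlapped, and the log2 ratio of adult over larva was -0.20 ± 0.42 (SE, edgeR quasi-likelihood test, adjusted p = 0.870).

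A scaffold and a chromosome were paired in the same way at the other highly read loci. The scaffold NIGP01001582 had introns of 7914 bases (144418 reads) and 457 bases (49698 reads), and LOC5579919 on chromosome 3 had introns of 7918 and 458 bases with the same counts and 2 unique reads at the longer one. At the longer intron the adult libraries had 4908, 4011 and 4303 CPM and the larval libraries 3971, 7292 and 5915 CPM, which overlap. LOC110676601 on chromosome 2 had introns of 63, 4181 and 87 bases with 16258, 17117 and 17979 reads, and NIGP01001580 had introns of 63, 4186 and 87 bases with exactly those counts. In LOC5579111 on chromosome 3, introns of 121 and 4857 bases had 17329 and 17385 reads, matched on NIGP01000083 by introns of 121 and 4860 bases. A larger difference in length was seen at LOC5575296 on chromosome 1, whose intron of 8470 bases had 27703 reads. Its counterpart on NIGP01000838 was 7393 bases long and had the same 27703 reads. LOC5575296 had 343, 566 and 360 CPM in adults and 971, 1089 and 1548 CPM in larvae, with every larval library above every adult one, but its log2 ratio of -1.51 ± 0.58 (SE) did not pass the edgeR test (adjusted p = 0.116). Scaling by library totals or by unique junction reads, or testing multiply mapped reads alone, brought the adjusted p to 0.00545, 0.0143 and 0.00360.

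A further pair of scaffold introns completed the 10 junctions with the most reads. The intron of 217 bases on NIGP01001653 had 51978 reads, the same count as an intron of 217 bases in LOC110678949 on chromosome 3 that also had 952 unique reads. The intron of 7200 bases on NIGP01000627 had 29939 reads, like one of 7199 bases in LOC5566726. This last intron had 2690, 931 and 1389 CPM in adults against 568, 1018 and 704 CPM in larvae. Its adult library of location 2 lay within the larval range, and its log2 ratio was 1.13 ± 0.54 (SE, edgeR adjusted p = 0.269). Under DESeq2 size factors, library totals or totals of unique junction reads as the scale, the edgeR adjusted p was 0.0437, 0.0400 and 0.0282.

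Sharing of reads was general. Counts were identical in all 6 libraries for 1110 of the 1389 junctions (79.9%), in 398 groups, of which 260 spanned a chromosome and a scaffold. Only 677 different count patterns were present among the 1389. With each pattern taken once, 79.2, 79.3 and 80.4% of the reads remained in adults and 74.4, 77.6 and 74.1% in larvae. Low counts can match by coincidence, so the 308 junctions with at least 100 reads were examined apart. Of these, 229 (74.4%) had the same counts as another of the 1389, and 34 more matched a junction that did have unique reads. Those 34 copies had a median of 4.5 unique reads (range 1 to 994), and in 30 cases the scaffold intron was the one without a unique read. No copy was found for 45.

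Among 85 pairs of 1 chromosomal and 1 scaffold junction with the same counts and at least 100 reads, the introns were equally long in 49. They differed by 1 to 10 bases in 19 and by more than 10 bases in 17, with 11863 bases as the largest difference. Of the 17 that differed by more than 10 bases, the 1 with the shortest chromosomal intron was 168 bases long there and 1440 on the scaffold, as the plot of paired intron lengths shows.

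**Figure D1:**
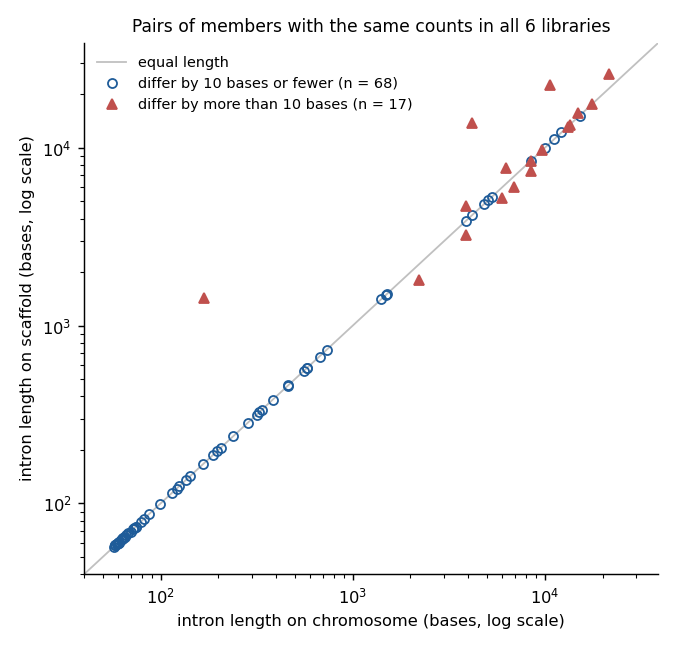
Intron length on the scaffold (vertical axis, bases, log scale) against intron length on the chromosome (horizontal axis, bases, log scale) for 85 pairs of junctions with the same read counts in all 6 libraries and at least 100 reads. Open circles are the 68 pairs within 10 bases of each other, triangles the 17 pairs further apart, and the line marks equal length. The 68 circles lie on or next to the line, and the 17 triangles include pairs such as 8470 and 7393 bases.

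Of the 1022 junctions on chromosomes 1 to 3, 540 lay within exactly 1 RefSeq gene, 110 within several and 372 within none. The genes that contain them numbered 240, of which 234 were protein-coding. In 97 of the 240, no intron had a unique read, so a count restricted to unique junction reads gives them 0. Of 201 genes with an annotated member, 99 had under 1% of the reads of their annotated introns placed uniquely. These counts follow in part from the rule, because genes enter through members that have no unique read. In 78 of the 201, every annotated intron with reads was itself a member. The same limit holds for the genes without unique reads among the 20 that follow. The 20 genes with the most reads at members they alone contain were all protein-coding and held 184 of the junctions. Of the 20, 9 had no unique junction read (LOC5575296, LOC5572386, LOC5576738, LOC5567790, LOC5566662, LOC23687808, LOC110678808, LOC110675535 and LOC5569390), and 13 shared count patterns with a scaffold. Some copies were 2 genes of 1 chromosome. LOC110678808 and LOC5577360 on chromosome 3 had introns of 218 and 219 bases with the same 2508 reads, and LOC5577360 had 11678 unique reads at another intron. LOC110675535 and LOC5564097 on chromosome 2 each had an intron of 68 bases with the same 2003 reads. Summed over members, the libraries of the 2 stages did not overlap in 10 of the 20 genes. Adults were above larvae in 2, LOC5574604 and LOC5575615, and larvae above adults in 8. Of all single junctions tested, 5.31% had every adult library above every larval one and 16.6% the reverse. Among members with at least 100 reads these shares were 9.21 and 23.0%. Sums over genes with many reads are another unit, so neither pair of shares is a direct background for the 20. LOC110678808 and LOC5577360 are among the 8 through the same 2508 reads.

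Lengths followed annotation. The median intron length of the 1389 was 4052 bases, against 725 for the other junctions. The 617 annotated members had a median of 190 bases and the 772 unannotated ones a median of 18745.5 bases, while annotated other junctions had 443 and unannotated other junctions 19312. Introns over 10000 bases were 15.6% of annotated members and 59.7% of unannotated ones, close to the 62.7% of unannotated other junctions. Thus the longer median of the 1389 goes with their larger unannotated share, and within each class they were not longer than the other junctions. The longest spanned 886677 bases on chromosome 2 and the shortest 21 bases.

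**Figure D2:**
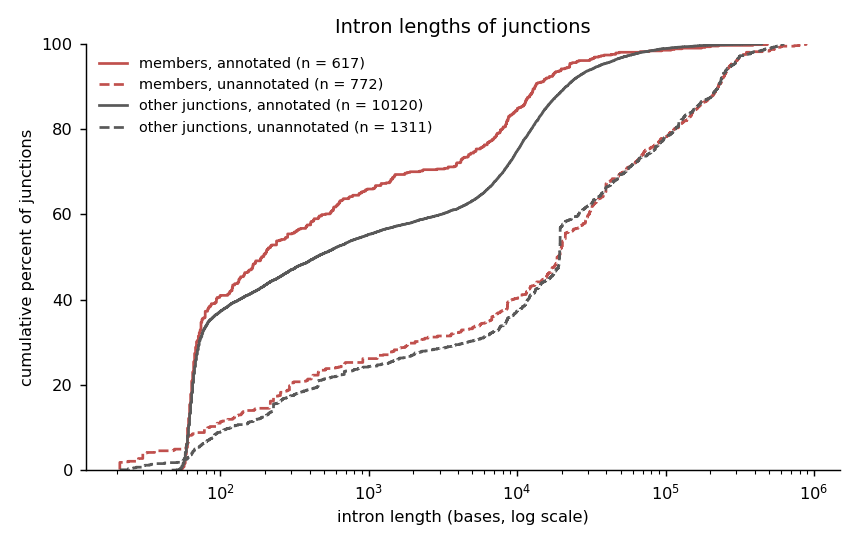
Cumulative percent of junctions (vertical axis) by intron length (horizontal axis, bases, log scale) for annotated and unannotated members and for other junctions of the same motifs with a unique read and at least 10 reads. Solid lines are annotated and dashed lines unannotated introns. The 2 dashed lines run together, and annotated members (median 190 bases) lie left of annotated other junctions (median 443 bases).

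Adults placed a smaller share of their junction reads at these introns than larvae did. The share was 4.19, 4.01 and 3.82% in adults of locations 1, 2 and 3, and 4.98, 4.22 and 5.40% in larvae. Every adult value lay below every larval value, and the means were 4.01% ± 0.188 and 4.87% ± 0.600 (SD, n = 3 each), a difference of -0.861 percentage points. With 3 libraries a stage an exact permutation test (two-sided) cannot go below p = 0.1, and it gave that value, so this design could not pass 0.05. Counting error was small beside the spread within a stage. In the shallowest library, adults of location 2, the exact Clopper-Pearson 95% interval ran from 3.97 to 4.04%. It was not small beside the gap between the closest adult and larval libraries. The interval ran from 4.177 to 4.213% in adults of location 1 and from 4.202 to 4.235% in larvae of location 2. These intervals overlap, so the order of that pair lies within counting error. The stages overlapped without the 10 junctions with the most reads (1.59 and 1.99%, p = 0.3) and relative to unique junction reads (4.92 and 5.64%, p = 0.3), both by the exact permutation test. With each count pattern taken once, adults of location 1 kept 155376 reads beside 4676538 junction reads, and larvae of location 2 kept 182681 beside 5583487. The share was then higher in those adults, so the stages overlapped here too. With 1 junction per group of equal length and counts they stayed apart (3.66 and 4.37%, exact permutation p = 0.1).

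Unannotated introns made up a larger part of these reads in adults. They held 14.4, 15.2 and 13.9% of the member reads in adults and 5.44, 7.59 and 4.17% in larvae (means 14.5% ± 0.680 and 5.73% ± 1.73, SD, n = 3 each, exact permutation p = 0.1). The stages stayed apart without the unannotated junction with the most reads (10.8 and 4.80%), with each count pattern taken once (13.7 and 5.31%), and without clusters that match the mitochondrial genome, described further on (12.1 and 5.62%). Without both that junction and those clusters they were 8.17 and 4.66%. This was not particular to these junctions. At the other junctions, unannotated introns held 9.48% ± 4.87 of the reads in adults and 3.12% ± 1.53 in larvae, again with no overlap, and 50.6 and 18.5% of their multiply mapped reads.

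**Figure D3:**
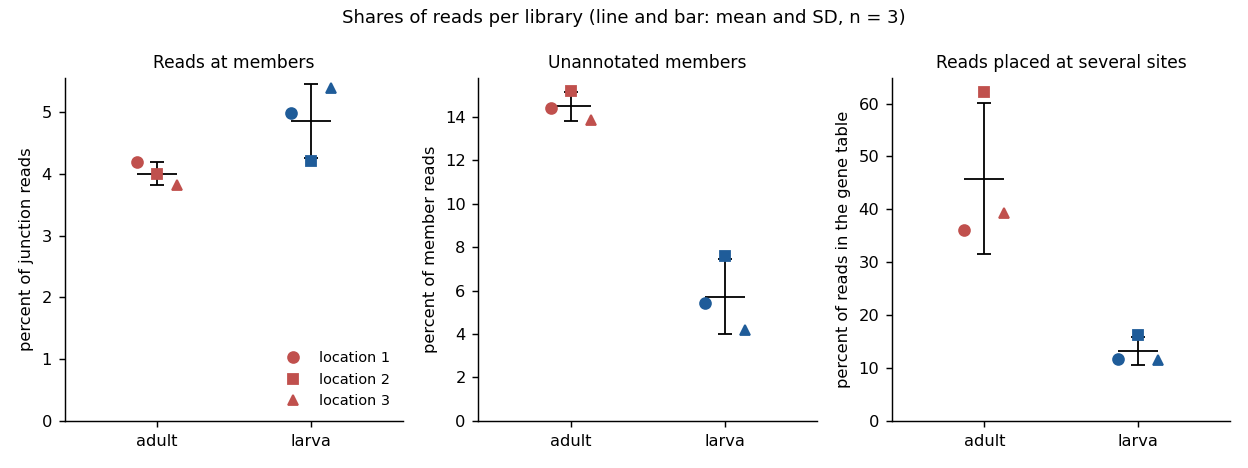
Percent of junction reads at members, percent of member reads at unannotated members, and percent of all reads placed at several sites (vertical axes), for adult and larval libraries; circles, squares and triangles are locations 1, 2 and 3, and horizontal lines with bars are means and SD of 3 libraries. The stages do not overlap in any of the 3 panels, with adults lower in the first (4.01 and 4.87%) and higher in the other panels.

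The unannotated junction with the most reads, 59 bases long at 13560 to 13618 of NIGP01001741, had 22765 reads. Its copy at chr3:309543281-309543339 had the same multiply mapped count and 5 unique reads, and lay in no RefSeq gene. It had 1976, 916 and 2306 CPM in adults and 242, 974 and 322 CPM in larvae, so that the stages overlapped at location 2. Its log2 ratio of 1.76 ± 0.56 (SE) passed the edgeR test (adjusted p = 0.0293), but the call held in only 1 of the 6 fits that each left out 1 library. It was named here after its values were seen.

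A read was seen at 679, 385 and 598 of the 1389 junctions in adults of locations 1, 2 and 3, and at 561, 891 and 776 in larvae. These numbers overlapped (exact permutation p = 0.3). Adults of location 2 had both the fewest junction reads and the fewest of the 1389 with a read, but larvae of location 1, with 5744415 junction reads, had fewer than adults of location 3, with 2127371. Reads in adults only were found at 231 junctions (16.6%), in larvae only at 451 (32.5%) and in both stages at 707 (50.9%). Of the other junctions, 7.28% were seen in adults only, 28.6% in larvae only and 64.1% in both. Of the 1389, 154 (11.1%) were seen in all 6 libraries and 408 (29.4%) in a single one. Among the other junctions these shares were 15.6 and 15.4%. Among the unannotated members 41.3% were seen in 1 library, and among the annotated ones 14.4%. All 3 adult libraries and no larval one had 16 of the 1389 (1.15%, against 0.534% of the other junctions). All 3 larval libraries and no adult one had 57 (4.10%, against 5.62%). Among annotated members these 2 shares were 0.324 and 6.32%, and among unannotated ones 1.81 and 2.33%.

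A read at every location was found for 570 of the 1389 junctions (41.0%), and at 1 location only for 437. Of these last, location 1 had 177, location 2 had 119 and location 3 had 141. Few were seen in both stages of 1 location and nowhere else: 6 at location 1, 7 at location 2 and 16 at location 3.

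The stage test covered the 10646 junctions of the series with at least 10 reads and a read in at least 2 libraries, of which 671 (6.3%) passed an adjusted p of 0.05 in the edgeR quasi-likelihood test. Of the 1389, 981 passed the filter and 57 of these were called, 5.81%, which is near the share over the whole table. They were higher in adults at 22 junctions (2.24% of those tested, against 2.47% over the table) and in larvae at 35 (3.57%, against 3.83%). Because of shared reads, the 22 held 15 count patterns and the 35 held 20. Annotated introns were 9 of the 22 and 27 of the 35. No larval read was present at 7 of the 22 and no adult read at 22 of the 35. The median log2 ratio was -0.46 over the 981 tested and -0.75 over all junctions tested. The choice of scaling moved the median over all junctions to -0.60 with DESeq2 size factors and -0.85 with library totals.

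Every adult library lay above every larval one at 73 of the 981 (7.44%, against 5.31% over the table), and every larval library above every adult one at 115 (11.7%, against 16.6%). Of the 73, 61 were unannotated among 453 tested, and 12 annotated among 528. The count of calls depended on single libraries. It was 5 higher in adults and 12 higher in larvae without the adults of location 2, 8 and 21, 10 and 13, and 12 and 19 without the larvae of locations 1, 2 and 3. With location as a block it was 10 and 17.

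**Figure D4:**
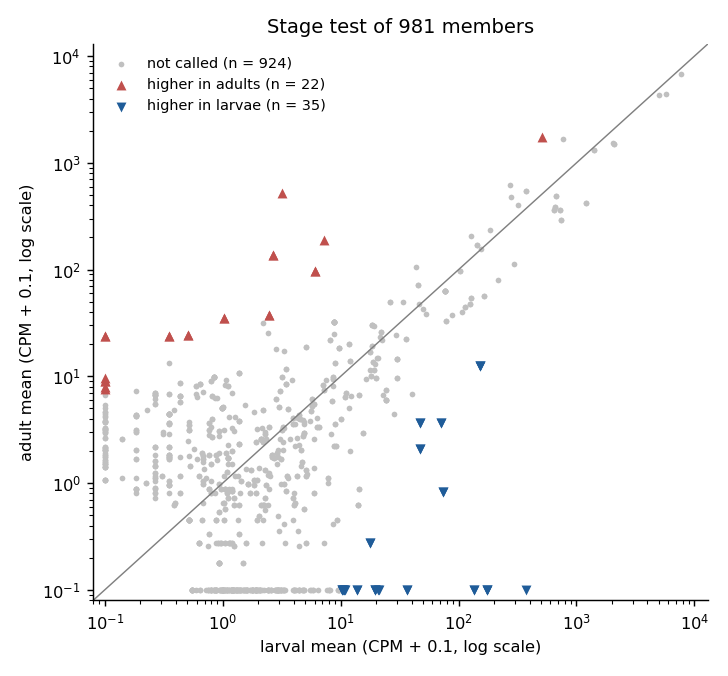
Mean level in adults (vertical axis) against mean level in larvae (horizontal axis), each as CPM plus 0.1 on a log scale, for the 981 members tested. Triangles pointing up are the 22 called higher in adults, triangles pointing down the 35 called higher in larvae, grey points were not called, and the line marks equal levels. The introns with the most reads lie near the line, and 22 of the 35 larval calls lie at the lower edge, where adults had no read.

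The 5 smallest p-values among junctions higher in adults with no overlap included a pair of introns that overlap on opposite strands of the scaffold NIGP01001047. Its intron at 21793 to 33345 (11553 bases, unannotated) had 2045, 1107 and 868 reads in adults and 23, 14 and 22 in larvae. The log2 ratio was 7.42 ± 0.91 (SE, edgeR adjusted p = 6.35e-14), with 527 ± 99.95 CPM in adults and 3.05 ± 0.420 CPM in larvae (SD, n = 3 each). On the other strand, the intron at 22420 to 33900 had 838, 228 and 159 reads in adults and 46, 7 and 0 in larvae. A near-identical count was found at chr3:15085452-15096923 (11472 bases), which lies within LOC5568063 and LOC5568062, with 838, 229 and 159 reads in adults and 46, 7 and 0 in larvae (log2 ratio 5.73 ± 1.07, SE, edgeR adjusted p = 4.29e-06). All 3 kept their call under each alternative that tested them.

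Annotated introns were also among the adult calls. LOC5567472 on chromosome 3 had its intron of 316 bases at chr3:379768726-379769041, with 142, 15 and 54 reads in adults and 0 in each larval library. The adult mean of 23.5 ± 13.1 CPM (SD, n = 3) was 157-fold above a floor of 3 counts over the 3 larval libraries (edgeR adjusted p = 6.66e-05). The neighbouring intron of the gene, 6293 bases, had 153, 50 and 75 reads in adults and 0, 11 and 0 in larvae (edgeR adjusted p = 0.00486). With each library left out in turn, the call at the shorter held in 6 of 6 fits and at the longer in 3. Both had the counts of introns on NIGP01002082, of 314 and 7743 bases. On NIGP01001768, the intron at 24267 to 24333 (67 bases) had 221, 58 and 913 reads in adults and 0, 47 and 80 in larvae, with a log2 ratio of 4.72 ± 0.96 (SE, edgeR adjusted p = 3.26e-05). Its call was lost without the adults of location 3 (2.57, adjusted p = 0.297), without the adults of location 2 (adjusted p = 0.0590), without the larvae of location 2 (0.110) and under a stricter filter on low counts (0.0955).

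The larval calls with the smallest p had no adult read at all. On NIGP01001929 the intron at 20992 to 21083 (92 bases) had 0 reads in every adult library, against 2048, 3240 and 324 in larvae of locations 1, 2 and 3. The larval mean of 372 ± 398 CPM (SD, n = 3) was 975-fold above a floor of 3 counts over the adult libraries (edgeR adjusted p = 1.33e-19). That ratio uses the mean, while the larval libraries ran from 39.6 to 812 CPM. The next intron on that scaffold, at 21319 to 21391 (73 bases), had 0 adult reads and 1069, 1479 and 129 larval reads. The first of these had a copy of 92 bases at chr3:177575371-177575462 with 5613 multiply mapped and 46 unique reads, in LOC5573590 and LOC110677734. LOC5576738 on chromosome 1 had introns at chr1:262413295-262413460 (166 bases) and chr1:262413685-262418976 (5292 bases). The shorter had 0 reads in each adult library and 990, 69 and 3118 in larvae, and the longer 0 in each adult library and 630, 69 and 2499 in larvae. The larval means of 175 ± 187 and 134 ± 151 CPM (SD, n = 3 each) were 460-fold and 353-fold above the same floor (edgeR adjusted p = 1.96e-13 and 1.04e-11). At both introns the larvae of location 2 had 17.3 CPM. NIGP01001072 carried the same counts at introns of 166 and 5293 bases. The calls at these introns of NIGP01001929 and LOC5576738 held under every alternative run. In none of the annotated introns of LOC5576738 was a read placed uniquely, so gene tables based on unique reads do not show this difference at them.

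LOC5567790 on chromosome 1 had 4 introns called higher in larvae, of 168, 135, 3912 and 21650 bases, each with a copy of the same counts on NIGP01001744. With each library left out in turn, the 4 calls held in 6, 5, 1 and 4 of 6 fits. Summed over its 5 members, it had 15.3, 0 and 14.3 CPM in adults and 252, 167 and 305 CPM in larvae. LOC23687808, also on chromosome 1, had an intron of 7693 bases with 92, 14 and 14 reads in adults and 1319, 311 and 1727 in larvae (edgeR adjusted p = 0.00326). Its counts recurred at introns of 7702 bases on NIGP01001712 and 7710 bases on NIGP01000521. LOC110681558 had 2 introns, of 284 and 15188 bases, with 0 adult reads and 875 and 254 larval reads, of which 785 and 200 were from location 3. The call at its shorter intron held in 5 of 6 fits that left out 1 library, and at the longer in 0, while that of LOC23687808 held in 5. These 3 genes were named by their calls.

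Of the 57 called junctions, 10 had reads in 2 libraries alone and 13 overlapped between stages. One rested on a single library: chr1:276054555-276070330 had no adult read, and 1 larval read at location 1, 128 at location 2 and none at location 3 (edgeR adjusted p = 0.0347, called in 1 of 6 fits that left out 1 library).

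Locations were compared with an F test over the 3 locations with stage as a covariate, which has 2 residual degrees of freedom. None of the 981 passed in edgeR's quasi-likelihood test, against 39 of 10646 over the table (0.366%). At an unadjusted p under 0.05 there were 14, and DESeq2's likelihood ratio test gave 0 with 2 at that level. The smallest adjusted p was 0.677, at the intron of NIGP01001768 described above, whose adults of location 3 had 913 of its 1319 reads. Without the adults of location 2, 14 of 942 members tested passed (1.49%), beside 295 of 10450 over the table (2.82%). Without the larvae of location 2, 1 of 735 did, beside 121 of 8495 over the table (1.42%).

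Most of the junctions lay near another of the 1389 on the same sequence. When those whose intron starts lie within 100000 bases of the next were joined, the 1389 formed 208 clusters of at least 2, which held 1102 of them (79.3%), and 287 stood alone. The 21 clusters of at least 10 held 534 junctions, and 17 of the 21 were on chromosomes 1 to 3, 3 on scaffolds and 1 was the mitochondrial genome. Of the 1022 junctions on chromosomes 1 to 3, 817 (79.9%) lay in a cluster of at least 2. Introns of 1 gene can be joined in this way. No such share is given here for the other junctions, so clustering is not shown to be particular to the 1389.

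The largest cluster lay at chr3:135618327-136701872 and held 136 junctions, none of them annotated. Within LOC5575615 alone lay 109 of them. Intron lengths recurred in it: 39688 bases in 11 junctions, 21124 in 9, 18565 in 7, 19494 in 6 and 20194 in 5. Its summed level was 588, 678 and 785 CPM in adults of locations 1, 2 and 3 and 43.6, 237 and 65.5 CPM in larvae. Adults were thus above larvae at each location, with means of 683 ± 98.9 and 115 ± 106 CPM (SD, n = 3 each), a ratio of 5.93 (two-sided exact permutation p = 0.1). The log2 ratio of 2.57 became 3.65 without the larvae of location 2. Of its junctions, 94 were tested, and they held 46 count patterns. Every adult library lay above every larval one at 31 of the 94 (33.0%, in 17 patterns), and the reverse held at none. Over the table these shares were 5.31 and 16.6%. Over the 453 unannotated members tested, which include the 94, they were 13.5 and 5.52%. In the cluster 1 junction was called, higher in adults (1.06%, against 2.47% over the table and 2.87% of the 453). Many junctions of the cluster were sparse, since 42 were seen in a single library. A set of 3 that share the same 480 reads formed a chain: chr3:135881401-135902440, chr3:135902524-135921004 and the intron of 39604 bases that spans both.

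The second cluster, at chr1:205561346-205740697, held 77 unannotated junctions, none within a RefSeq gene. No other junction of the same motifs with a unique read and at least 10 reads lay inside it. One intron start, at 205654856, was joined to 7 ends with a median spacing of 8616 bases (range 8600 to 30236), and each of the 7 had 1798 to 1804 reads. Likewise, 8 starts with a median spacing of 8588 bases (range 8586 to 15339) were joined to 1 end at 205654847, each with 433 reads. With each count pattern taken once, 4446 of the 17252 reads of the cluster remained. Its summed level was 894, 541 and 801 CPM in adults and 291, 1162 and 500.3 CPM in larvae. The stages overlapped (745 ± 183 and 651 ± 455 CPM, SD, n = 3 each, exact permutation p = 0.8), with adults higher at locations 1 and 3 and lower at location 2.

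The third cluster was compact. At chr3:84656943-84661422, 40 unannotated junctions lay inside the overlapping genes LOC5579172 and LOC110679547. In 39 of the 40, the intron was a whole multiple of 228 bases, from 1 to 11 units. The same unit fitted 8 of the 12 junctions of LOC5566847, elsewhere on chromosome 3, and 4 of the 1337 remaining members (0.299%). Among the other junctions of the series, 94 of 11431 had such a length. A length of whole units of 228 bases is also a multiple of 3. In LOC5566847 the intron of 912 bases at chr3:120165369-120166280 had 5412 reads, with 226, 302 and 172 CPM in adults and 146, 207 and 201 CPM in larvae. The summed level of the third cluster was 127, 124 and 262 CPM in adults and 244, 253 and 223 CPM in larvae, which overlap (171 ± 78.8 and 240 ± 15.1 CPM, SD, n = 3 each, exact permutation p = 0.4).

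**Figure D5:**
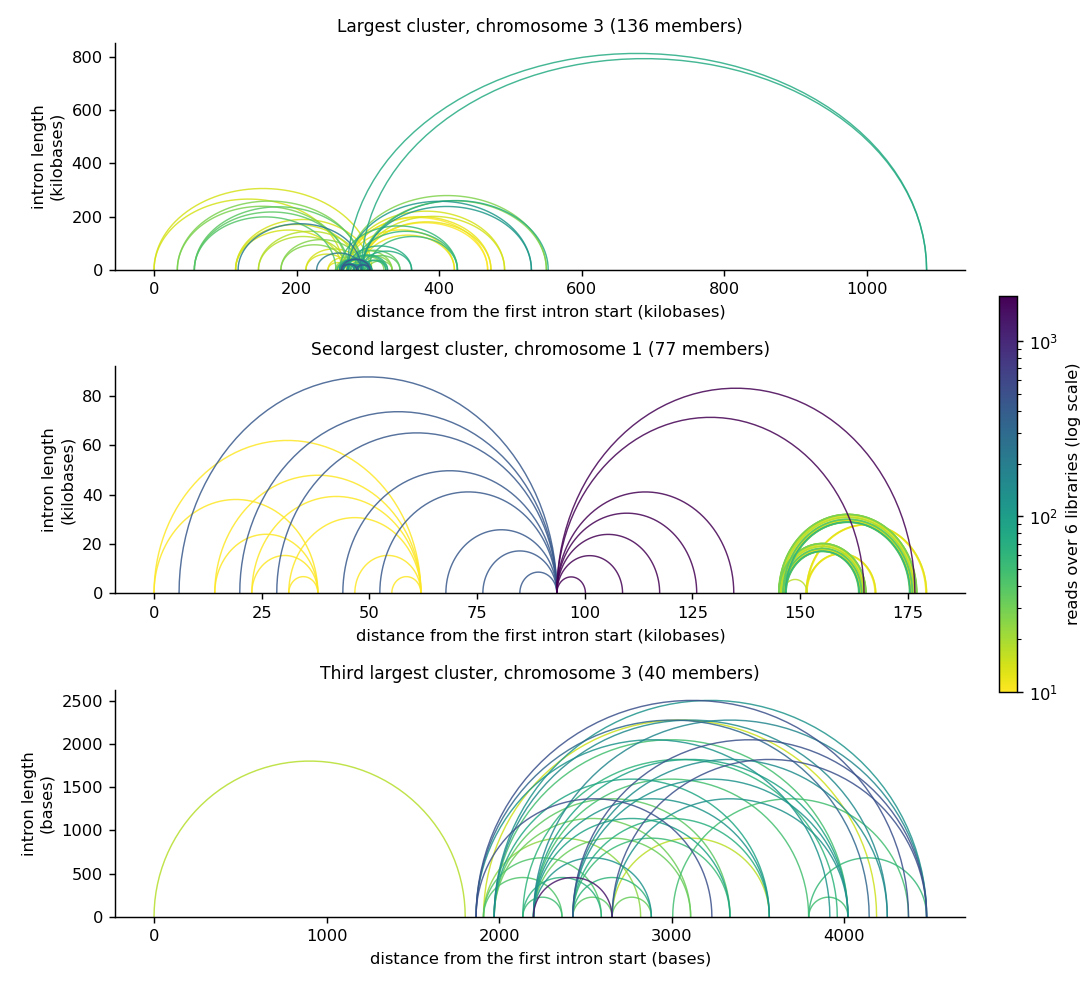
Introns of the 3 largest clusters drawn as arcs from intron start to intron end (horizontal axis, distance from the first intron start, kilobases in the upper 2 panels and bases in the third); the height of an arc is the intron length, and the colour gives the reads over 6 libraries on a log scale. The first panel shows many arcs that fan out from 1 dense region, the second shows 1 start joined to 7 ends and 1 end joined to 8 starts, and the third shows arcs whose lengths are whole multiples of 228 bases in 39 of 40.

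A further pair of clusters had reads almost only in larvae of 1 or 2 locations, and were named after their values were seen. The one at chr2:426113635-426232837, which touches 18 neighbouring RefSeq genes, had 14 unannotated junctions with no read in any adult library or in larvae of location 1, against 563 reads in larvae of location 2 and 513 in those of location 3. The one at chr1:276011788-276117383, which touches 14 RefSeq genes, had 20 junctions and 759 reads. Of these reads, 6 came from the adults of location 3, 752 from the larvae of location 2 and 1 from the larvae of location 1. Neither comparison of the summed levels between stages passed (exact permutation p = 0.4 and 0.7), and this test cannot go below 0.1 here. Single junctions of both were called higher in larvae by edgeR. In the first they were chr2:426172807-426182003 and chr2:426172807-426232837 (adjusted p = 0.00129 and 0.00134), each called in 3 of 6 fits that left out 1 library. In the second it was chr1:276054555-276070330, described above (adjusted p = 0.0347). All of them overlapped between the stages.

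The mitochondrial genome held 13 of the junctions, all unannotated. Animal mitochondrial genes have no introns of the kind the spliceosome removes. Of the 13, 12 lay between positions 12666 and 13226 and skipped 21 to 410 bases. Their 388 reads numbered 114, 154 and 38 in adults and 5, 17 and 60 in larvae. Because the 13 had no unique read, the same reads fitted elsewhere: 12 of the 13 had nuclear junctions of the same length and counts, 54 in all, in 8 clusters on chromosomes 1, 2 and 3. The 5 largest groups of equal length and counts were all of this kind. A junction that skips 30 bases, with 15, 0 and 18 reads in adults and 0, 3 and 0 in larvae, was found at 8 places, 1 of them mitochondrial. One of 217 bases, with 16 reads that all came from the adults of location 2, was also found at 8 places, and 3 more, of 61, 21 and 61 bases, at 6 places each.

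Of the 8 nuclear clusters that hold these matches, 6 had every adult library above every larval one, 1 had the reverse and 1 overlapped. The 8 were chosen by counts they share, so the same reads recur in them and the 6 are not independent observations. Those at chr3:326191383-326734833 and chr2:114434150-114799703 also share an intron count of 193 reads. Of single junctions over the table, 5.31% had every adult library above every larval one and 16.6% the reverse. Among unannotated members tested these shares were 13.5 and 5.52%. Sums over clusters are another unit, so neither pair of shares is a direct background for the 8. The largest cluster was 1 of the 6. The reverse was seen at chr3:342790385-343628968, which includes the 2 highly read annotated introns of LOC5579111, with 729 ± 69.6 CPM in adults and 1481 ± 187 CPM in larvae (SD, n = 3 each, ratio 0.492). LOC5579111 held 34771 of the 35353 reads of this cluster, so its reverse order is mostly that of this gene. The 11 members in LOC5579122, some of which match a mitochondrial junction, had 45.6 ± 39.2 CPM in adults. In larvae they had 6.54 ± 6.52 CPM (SD, n = 3 each), and the stages overlapped. Over all 267 junctions of the 8 clusters and the mitochondrial genome, adults had 1792 ± 181 CPM and larvae 1628 ± 249 CPM, which overlap (ratio 1.10, exact permutation p = 0.4). LOC5579111 also held 34771 of the 45629 reads of these 267 junctions. Of the 6, those at chr3:338963375-339181477, chr3:326191383-326734833, chr1:191815566-192008009 and chr2:114434150-114799703 had 23, 21, 17 and 15 junctions, none annotated. Their summed levels were 73.6 ± 48.3, 102 ± 56.0, 51.8 ± 36.9 and 66.4 ± 30.9 CPM in adults, against 6.97 ± 4.65, 8.84 ± 6.25, 2.64 ± 3.38 and 4.64 ± 3.83 CPM in larvae (SD, n = 3 each). The ratios were 10.6, 11.5, 19.7 and 14.3, with no overlap between stages in any of the 4 and an exact permutation p of 0.1 in each. Without the adults of location 2 the ratio of the first became 6.57 and that of the third 11.6, and without the larvae of location 2 that of the third became 74.5 and that of the fourth 23.5. Over the 67 junctions that match a mitochondrial one or are one, the levels were 111, 491 and 96.2 CPM in adults and 0.641, 17.0 and 40.3 CPM in larvae. The adults of location 2, the library with the most reads placed at several sites, were the highest. Taking 1 junction per count pattern and length left 45.4 ± 38.2 CPM in adults and 4.08 ± 3.35 CPM in larvae (ratio 11.1, exact permutation p = 0.1). That ratio was 5.75 without the adults of location 2 and 18.5 without the larvae of location 3. Which of the matching places the reads came from cannot be told apart in these tables.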

How the data were processed

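Per the labels' protocols, total RNA of whole-body pools was sequenced as paired ends of 150 bases. STAR, fastp, cutadapt, FastQC and edgeR are listed, without versions, per the submitters' processing notes. The sources used here name neither the genome build nor the annotation. The deposited junction tables hold raw counts of uniquely and multiply mapped reads per intron, and the deposited gene tables hold raw counts, of which only the 4 summary rows were used, for the share of reads placed at several sites. The summary rows, 69.3 to 92.3% of the reads, stayed out of all library sizes and tests. A read placed at several sites appears at each, so counts of copies are not independent, and junctions are not replicates of a stage.

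The members and lists were chosen with earlier results of these data known. Members are junctions with motif 1 or 2, 0 unique reads and at least 10 multiply mapped reads over 6 libraries. Named are the 10 with the most reads, the 5 smallest p-values per direction among called junctions without overlap, the 5 largest groups of equal length and counts, the 3 largest clusters and the 20 RefSeq genes with the most reads. The RefSeq table has no descriptions, so a list of gene families by keyword matched nothing. Of 15020 annotated introns on chromosomes, 99.97% lay inside a RefSeq gene (55.97% after a shift of 100000 bases), and on that basis it was used for symbols and neighbours only.

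For the tests of stage and location, edgeR 4.0.16 in R 4.3.3 was run (TMM, glmQLFit, glmQLFTest) on all 10646 junctions with at least 10 reads and a read in 2 libraries, with Benjamini-Hochberg adjusted p under 0.05 and 4 and 2 residual degrees of freedom. Per-library values were compared with two-sided exact permutation tests in scipy 1.17.1. On simulated counts for 10646 junctions, the stage test called 24 of 100 changed 4-fold, 83 of 100 changed 16-fold and 4 false ones. Since each stage had 1 pool at a location, p-values measure only the spread between pools of different locations. Alternatives were other scalings and filters, DESeq2 1.42.0, multiply mapped reads alone, 1 junction per group, other thresholds and cluster distances, a block for location, and fits without each library in turn. Intervals cover counting error only, because reads from 1 amplified fragment are not independent. At the shallowest library a count of 0 allows a share of up to 0.000206% of junction reads (3 counts).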

Additional observations from a re-analysis of the deposited data

Results flagged for a closer look

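The stages differed in opposite directions between locations, so that both signs occurred, in 2 of the 3 largest clusters and at 6 of the named count patterns. With 1 pool per stage and location, none of these differences between locations was tested. In the second largest cluster the log2 ratio of adult over larva was -1.10 at location 2, against 1.62 and 0.68 at locations 1 and 3. In the third largest it was 0.23 at location 3 and negative at the other 2. At the scaffold introns NIGP01000516 11282 to 11539 and 11630 to 13038 it was 0.40 and 0.37 at location 1 and negative elsewhere, at NIGP01001582 13046 to 20959 it was 0.31 at location 1, and at the intron of LOC5579919 at chr3:368208354-368208811 it was 0.39 at location 1, again negative at locations 2 and 3. At the intron of LOC5572088 at chr3:344890494-344890698 it was -0.87 at location 2, and at NIGP01000627 24978 to 32177 it was -0.13 at location 2, with positive values at locations 1 and 3.

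Junctions with other motifs were outside the rule. Among them 71 had no unique read and at least 10 multiply mapped reads, with 2877 reads in all: 361, 373 and 631 in adults of locations 1, 2 and 3, and 761, 323 and 428 in larvae. None of the 71 was annotated.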

How the results depend on the processing

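The calls of the stage test moved with the method. Of the 22 higher in adults and 35 higher in larvae, DESeq2's test gave 36 and 41, filterByExpr 5 and 17 (352 members tested), and leaving out 1 library 5 to 20 and 12 to 31. In all 6 of these reduced fits, 13 of the 57 stayed called, and 6 were called in none. With location as a replicate block the counts were 10 and 17. Same-numbered libraries share a collection location, but they did not deviate together (r = -0.00, -0.03 and 0.00). Over all junctions tested, the 671 calls became 374 with filterByExpr, 428 with the block and 371 to 584 with 1 library left out. The location test gave 0 to 14 members when 1 library was left out, beside 5 to 295 calls over all junctions tested (39 with all libraries).

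The adult minus larval share of junction reads kept its sign under every alternative (-1.17 to -0.402 percentage points, -13.2 of multiply mapped reads), at -1.19 to -0.595 with 1 library left out. So did the number of members with a read (-188.7, at -279.5 to -104) and the unannotated share of member reads (8.76, at 7.98 to 9.69, and 3.51 without both the top unannotated junction and the clusters that match the mitochondrial genome). With the replicate block, exact sign-flip tests gave p = 0.25, 0.5 and 0.25, where 0.25 is the smallest possible.

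The median length of 4052 bases became 6290, 1751 and 8636 at a minimum of 5 reads, at 20 reads and with 1 member per group. At 20 reads, 52.6% were annotated, 29.1% on scaffolds and 10 clusters had 10 or more, with 251 members in place of 534, while 178 members in place of 287 stood alone (191 when joined over 1000000 bases); 1 per group put 15.9% on scaffolds. Groups held 481 members with equal length (213 groups, 165 of them across a chromosome and a scaffold) and 1110 without that condition (398 and 260). Leaving out each library in turn at the sums that match a mitochondrial junction was added after the data were seen.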
